A study of Caenorhabditis elegans with 2 samples.

Results

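Chromatin immunoprecipitation of tagged DAF-19 gave 415 peaks in intergenic sequence of the autosomes that met a reproducibility threshold and lay outside promoter windows. They were taken from the pooled ranked list of 117986 peaks, of which 3086 (2.62%) had an irreproducible discovery rate (IDR, an estimate of how likely a peak is not to recur between replicates) of 0.05 or less. A peak was kept when its column of −log10 IDR was 1.3 or more and its summit was on chromosomes I to V, over 200 bp from any tRNA, snRNA, snoRNA or rRNA gene, outside every protein-coding gene, and outside every window of 1000 bp upstream to 200 bp downstream of a protein-coding transcript start. The place conditions alone left 18944 ranked peaks, and 2.19% of them passed the IDR threshold. The IDR, which comes from the same signals, chose these 415 peaks, so signal and IDR are given as descriptions without tests. They made up 16.9% of the called peaks on autosomes.

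The samples were 2 biological replicates of whole L4 larvae of Caenorhabditis elegans, 48 hours old, raised from L1 animals starved after bleaching. All animals were of strain OP794, which carries the integrated transgene wgIs794 with daf-19 fused to TY1, EGFP and 3xFLAG tags, together with a rescuing unc-119(+) copy, in an unc-119(tm4063) mutant background. Sonication gave fragments of 200 to 800 bp, and an antibody against GFP was used for the precipitation. There was 1 group, so no condition is compared, and the labels do not say what was done with the animals' own daf-19 gene. The tagged protein was assayed in whole animals, so the cells in which a site was bound are not known.

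DAF-19 is the RFX-family transcription factor of this nematode. It is known for binding the X-box, an imperfect inverted repeat in promoters of genes needed for sensory cilia. Worm autosomes have gene-dense centres and arms richer in repeats, and most piRNA genes, which encode short germline guide RNAs, lie in clusters on chromosome IV. Pseudogenes are disabled copies of genes, and transposon-derived sequence is common between genes.

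Several of the strongest peaks lay in sequence that recurs in the genome, and sequences of some of them, in 3 unlike sets, are shown first. Each peak is named by its chromosome and the base of its summit on assembly ce11 (WBcel235), and the bases were read from the RefSeq WBcel235 sequence. The strongest peak, IV:4728034, is shown for 201 bases around its summit (IV:4727934-4728134, plus strand), with capitals for the 188 bases that lie in 31-base words found more than once in the genome.
IV:4728034: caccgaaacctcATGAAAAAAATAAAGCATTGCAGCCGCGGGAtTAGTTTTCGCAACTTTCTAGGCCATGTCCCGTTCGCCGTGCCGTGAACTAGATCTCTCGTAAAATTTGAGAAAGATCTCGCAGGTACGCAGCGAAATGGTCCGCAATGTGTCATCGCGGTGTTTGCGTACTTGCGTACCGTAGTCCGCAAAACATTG
The second strongest, IV:4725635, lies 2399 bp away and has another sequence, which it shares in part with 4 further peaks, of which the 3 on chromosomes II, IV and V are shown. In the first line, capitals mark the 84 bases that were identical in all 3 of the others shown, and in the other lines they mark bases identical to IV:4725635 in a pairwise alignment.
IV:4725635: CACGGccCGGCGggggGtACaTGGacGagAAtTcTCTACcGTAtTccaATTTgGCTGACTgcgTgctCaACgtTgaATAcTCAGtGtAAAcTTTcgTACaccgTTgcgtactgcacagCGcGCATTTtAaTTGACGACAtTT
II:4048076: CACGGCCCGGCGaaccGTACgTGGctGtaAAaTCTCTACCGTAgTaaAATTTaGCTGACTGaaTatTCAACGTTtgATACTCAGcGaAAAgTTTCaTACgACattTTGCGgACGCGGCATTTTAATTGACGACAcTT
IV:9196449: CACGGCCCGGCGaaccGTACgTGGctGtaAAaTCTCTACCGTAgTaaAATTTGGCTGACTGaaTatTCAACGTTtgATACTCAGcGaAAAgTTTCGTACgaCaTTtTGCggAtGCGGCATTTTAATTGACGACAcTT
V:2008591: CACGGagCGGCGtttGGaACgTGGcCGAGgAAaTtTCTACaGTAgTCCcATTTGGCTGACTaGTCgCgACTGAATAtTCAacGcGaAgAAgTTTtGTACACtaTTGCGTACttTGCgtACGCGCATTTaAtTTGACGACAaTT
These stretches span IV:4725551-4725692 (plus strand), II:4048000-4048136 (plus), IV:9196320-9196456 (minus) and V:2008523-2008665 (minus). Identity to IV:4725635 was 74.3% over 144 aligned columns for II:4048076, 74.8% over 143 for IV:9196449 and 73.6% over 148 for V:2008591. II:4048076 and IV:9196449 were closer to each other, at 96.9% over 159 bp. Another pair of strong peaks, V:5667547 and II:5353857, shared 128 bases at 85.2% identity (V:5667455-5667582 and II:5353804-5353931, both plus strand), with identical bases in capitals.
V:5667547: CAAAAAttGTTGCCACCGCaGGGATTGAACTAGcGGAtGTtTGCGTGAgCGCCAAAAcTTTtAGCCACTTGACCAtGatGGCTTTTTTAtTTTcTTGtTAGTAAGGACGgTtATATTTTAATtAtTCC
II:5353857: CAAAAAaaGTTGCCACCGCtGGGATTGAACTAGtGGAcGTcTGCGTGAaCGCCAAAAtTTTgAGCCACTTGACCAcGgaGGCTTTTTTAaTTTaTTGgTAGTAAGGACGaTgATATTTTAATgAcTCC
None of the printed stretches overlaps a protein-coding gene in the Ensembl annotation.

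The IV:4728034 peak (IV:4727959-4728141) had the highest signal, 543 in the pooled list, with 284 in replicate 1 and 252.6 in replicate 2. Its summit lay 71 bp from the pseudogene K08F11.6 (WBcel235 IV:4725964-4727963, minus strand) and 2721 bp past the end of the coding gene K08F11.1. The IV:4725635 peak (IV:4725445-4725824) had a pooled signal of 408.6, with 229 in replicate 1 and 188.6 in replicate 2. It lay at the other side of the same pseudogene, 329 bp from its edge, 181 bp from the short noncoding gene K08F11.7 and 322 bp past the end of K08F11.1. These are the top 2 of the 415 in both replicates.

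The share of 31-base words repeated in the genome was 64.1% at IV:4728034 and 64.4% at IV:4725635, over 300 bp. The first had 12 other matches of at least 100 bp and 70% identity, 3 of them of 161 bp at 100% identity, and only 1 of the 12 was itself covered by a called peak, of signal 101.7. The second had 16 such matches, of which 6 were covered by a ranked peak and 3 by a called one, with signals up to 368. A copy at 99.1% identity over 235 bp, in rcor-1 on another chromosome, had a ranked signal of 73.3 and was not called. How reads that fit several places were assigned is not given in the sources used here, and its part in these signals was not tested.

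The other members of that sequence group were weaker. IV:9196449 (IV:9196259-9196638) had a pooled signal of 256.2, with 146.4 in replicate 1 and 111 in replicate 2, and lay 373 bp past the end of C46C2.7. II:4048076 (II:4047886-4048265) had 187.9 pooled, 88.2 in replicate 1 and 97.9 in replicate 2, and lay 449 bp from the pseudogene K07D4.1. V:2008591 had 111.7 pooled and lay 18 bp from the pseudogene F59A7.8. The peak I:316223, also of this group, matched V:2008591 at 88.0% over 117 bp and had 188.9 pooled, 107.6 in replicate 1 and 83.7 in replicate 2. All 5 were therefore within 500 bp of a pseudogene or of another noncoding gene. Over all 415 peaks, 62.7% had neither kind of gene that close, against 62.1% of place-passing ranked peaks that failed the threshold. The 5 share sequence, so their neighbourhoods are not independent cases.

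The V:5667547 peak (V:5667357-5667736) had 240.1 pooled, 125 in replicate 1 and 123.7 in replicate 2, and lay 1461 bp upstream of C14C11.7. Its match II:5353857 (II:5353667-5354046) had 209.6 pooled, 118 in replicate 1 and 88.3 in replicate 2, and lay 148 bp past the end of F09E5.7. The sequence also occurred at 2 called peaks outside the 415, one of signal 214.9 on chromosome V and one of signal 138.2 on chromosome II that covers the tRNA pseudogene K10B2.t1. All 3 matches of II:5353857 in the genome were covered by called peaks, and so were 3 of the 4 matches of V:5667547.

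Over all 415, matches elsewhere in the genome were found at a like share of peaks that were not called. Of the 415 peaks, 77 (18.6%, Wilson 95% interval 15.1 to 22.6%) had at least 1 such match, against 18.9% of the 18529 place-passing ranked peaks that failed the IDR threshold. At least 50% of the 31-base words were repeated at 7 of the called peaks (1.69%) and at 1.57% of the peaks not called. These shares over all 415, near those of the peaks not called, are not a result about the called ones. At an IDR of 0.01 or less, 26 of the 106 peaks had a match elsewhere (24.5%, interval 17.3 to 33.5%), and at least 50% of the 31-base words were repeated at 5 of the 106 (4.72%, interval 2.03 to 10.6%). The IDR chose these peaks and some of them share sequence with each other, so both shares are descriptions only.

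**Figure D1:**
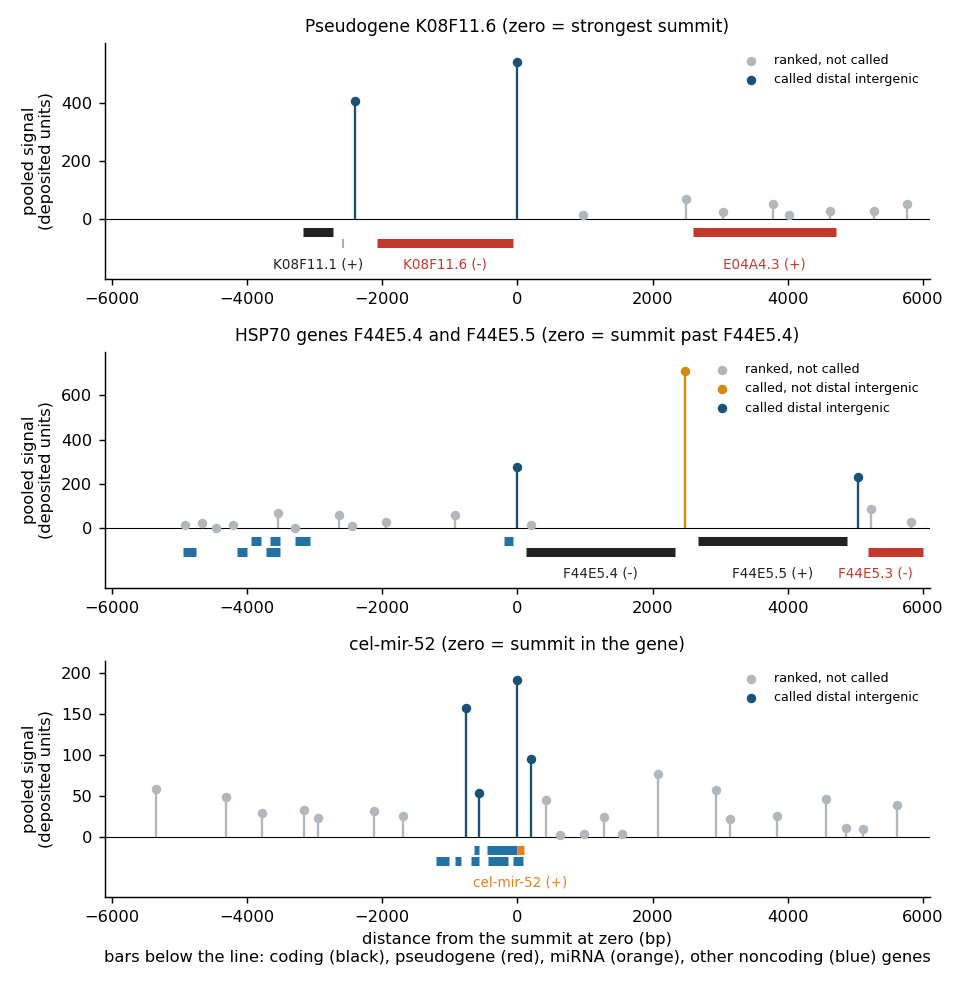
Pooled signal (deposited units, vertical axis) of every ranked peak within 6 kb of a summit (horizontal axis, bp) at 3 loci. Called distal intergenic peaks are blue, other called peaks orange and peaks not called grey, and the bars below each axis are annotated genes on the plus (upper) and minus (lower) strand. The 2 strongest peaks stand at 543 and 408.6 on either side of K08F11.6, peaks of 277.7 and 229.4 flank the HSP70 genes around a stronger called peak of 711 between them, and 4 called peaks lie at cel-mir-52.

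Pooled signals of the 415 peaks ran from 2.01 to 543 with a median of 93.9, and the middle of the distribution was narrow, with quartiles of 85.1 and 104.7. The 2671 other called peaks had a median of 95.4 and reached 782. Of the 100 strongest of the 3086 called peaks of the series, 8 were among these 415, a smaller share than the 415 make up of the 3086. The lowest values belonged to shoulders, since all but 1 of the 32 peaks with a signal below 40 overlapped another called peak. The lowest of all, II:7801079 with 2.01, lay 202 bp from a called summit of 92.7. The exception, IV:5162255, had 27.9. In all, 77 of the 415 (18.6%) overlapped another called peak, and merging overlapping peaks left 381 loci, 34 of them made of 2 peaks.

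At the threshold, the 3 peaks just inside had −log10 IDR values of at most 1.303 and pooled signals of 87.8 (V:6312085), 78.7 (IV:9272679) and 86.7 (I:12552966). The 3 just outside had values of at most 1.299 and signals of 34.3 (V:20162423), 88.7 (V:20162216) and 83.4 (IV:13322641), the first a neighbour of the second. Peaks on either side of the threshold thus had like signals. An IDR of 0.01 or less was reached by 106 of the 415, which is 0.560% of the place-passing ranked peaks.

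A ranked peak of replicate 1 covered 399 of the 415 summits and a ranked peak of replicate 2 covered 389, with both present at 379 (91.3%, Wilson 95% interval 88.2 to 93.7%). The strongest peak over the summit had a median signal of 51.3 in replicate 1 (range 38.1 to 284) and 44.7 in replicate 2 (range 34.1 to 252.6). Replicate 1 was higher at 282 of the 379, with a median ratio of 1.14 and ratios from 0.658 to 2.24. Among these 379 peaks the 2 replicates' signals had a Spearman correlation of 0.18 and a Pearson correlation of 0.63 on the log2 scale, which describes a set cut at a threshold, over peaks that share the same 2 libraries.

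**Figure D2:**
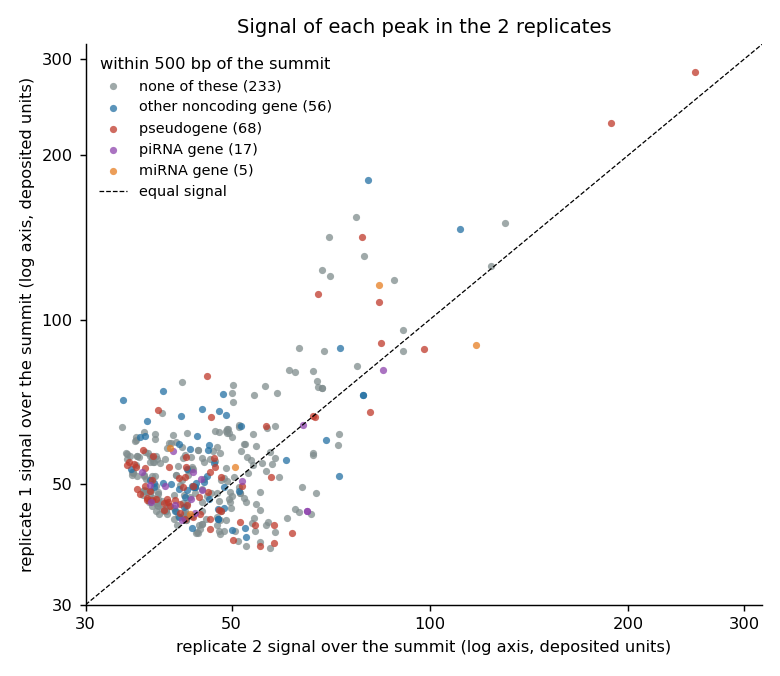
Signal of the strongest ranked peak over each summit in replicate 1 (vertical) and replicate 2 (horizontal), both on log axes in the deposited units, for the 379 peaks covered in both and coloured by the annotated gene within 500 bp. Most points crowd between the lowest values, 38.1 and 34.1, and about 60, and the 2 peaks beside K08F11.6 stand apart at the upper right.

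Each replicate also has a ranked list made from that replicate alone, with its own IDR. By that measure 33 of the 415 were at an IDR of 0.01 or less in replicate 1, 28 in replicate 2 and 21 in both. The share of all place-passing ranked peaks at that IDR was 0.193% in the list of replicate 1 and 0.175% in that of replicate 2. The rule used both replicates, so these counts carry no independent support. Of the 36 summits not covered in at least 1 replicate, 26 belonged to peaks that overlapped another called peak, and 6 were covered in neither. The strongest without a replicate 2 peak was III:7824349, 28 bp past the end of egl-45, a translation initiation factor subunit gene, with 123.8 pooled and 76.2 in replicate 1. The strongest without a replicate 1 peak was III:4491473, 81 bp past the end of cpg-1, an eggshell chondroitin proteoglycan gene, with 110 pooled and 52.8 in replicate 2, followed by III:6308151 with 103 pooled and 46.9 in replicate 2.

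The term distal held for only part of these peaks. The place rule removes sequence upstream of coding genes but not the sequence past their ends, and 110 of the 415 summits (26.5%, Wilson 95% interval 22.5 to 31.0%) lay within 500 bp of the end of a coding gene. The same was true of 15.4% of place-passing ranked peaks that were not called and of 14.7% of the bases that pass the place rule. Within 300 bp the shares were 20.5% of the called peaks, 10.7% of peaks not called and 9.85% of the bases. Among the 106 peaks at an IDR of 0.01 or less, 40.6% were within 500 bp, against 21.7% of the remaining 309. The IDR also chose the 415 peaks, so this split by IDR is a description and carries no independent support. Seen from the other side, 3.70% of the 2970 place-passing ranked peaks within 500 bp of a gene end were called, against 1.91% of the 15974 farther away, with intervals of 3.08 to 4.44% and 1.71 to 2.13%. Beyond 1000 bp from any coding gene lay 263 of the 415.

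**Figure D3:**
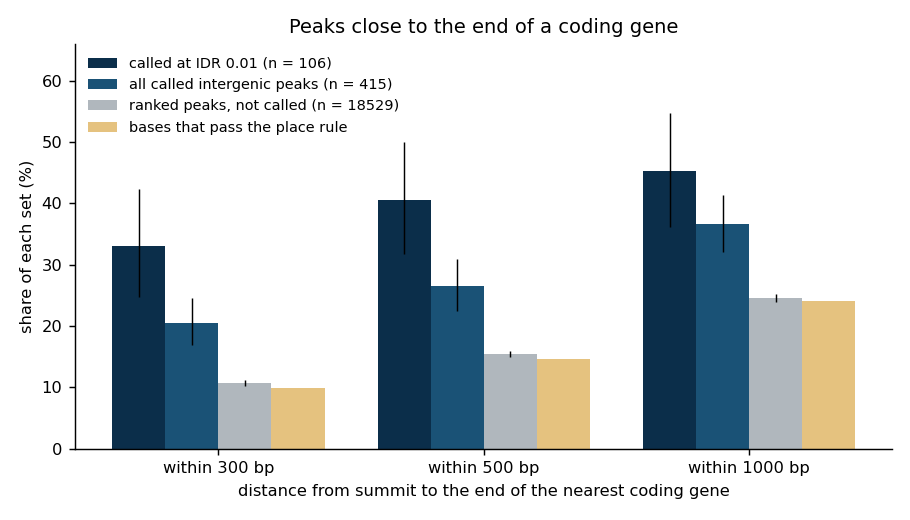
Share of each set (vertical axis, %) whose summit lay within 300, 500 or 1000 bp of the end of a coding gene (horizontal axis). The bars are peaks called at an IDR of 0.01, all called distal intergenic peaks, ranked peaks not called and the bases that pass the place rule, with Wilson 95% intervals for the peaks. At 500 bp the bars stand at 40.6%, 26.5%, 15.4% and 14.7%. The split by IDR is a description, since the IDR chose the peaks.

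Signals were also slightly higher near gene ends, both among called peaks and among peaks not called. The 110 peaks within 500 bp of an end had a median pooled signal of 99.1 and the other 305 had 91.9. For peaks not called the medians were 35.4 and 32.9. Of the 338 called peaks that overlapped no other called peak, 29.9% lay that close to an end, against 26.5% of all 415. The part of overlapping peaks in the difference between medians was not tested. Signal also underlies the IDR, so this difference is not a result about the called peaks. The 110 peaks lay past 108 coding genes. Between 2 genes that point toward each other lay 49 of them, and 61 lay between genes that point the same way. The place rule removes upstream sequence, so none could lie between divergent genes. This split was not set beside peaks not called or bases equally close to an end, so it is not a result about the called peaks. Over all 415, the flanking genes were convergent at 17.8%, against 13.5% of peaks not called and 17.6% of bases, and divergent at 26.7%, against 31.0% and 28.8%.

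Gene ends lay within 500 bp of 10 of the 12 peaks of highest signal, against 26.5% of all 415 and 15.4% of peaks not called. The 12 were picked by signal, which underlies the IDR, so this count is a description and not a result about the called peaks. Some of the 12 share sequence or lie by the same genes. IV:17281454 (IV:17281264-17281643) had 296.6 pooled, 150.2 in replicate 1 and 130 in replicate 2. It lay 124 bp past the end of hsp-1, an HSP70 chaperone gene, and 1 bp past the end of nra-1, a gene for a protein tied to nicotinic receptors, which runs toward it from the other side.

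The HSP70 genes F44E5.4 and F44E5.5, which point away from each other, had a called peak past the end of each. II:11756984 (II:11756794-11757173) lay 123 bp past the end of F44E5.4 and 65 bp from the noncoding gene F44E5.16, with 277.7 pooled, 180 in replicate 1 and 80.4 in replicate 2. II:11762016 (II:11761826-11762205) lay 155 bp past the end of F44E5.5 and 150 bp from the pseudogene F44E5.3, with 229.4 pooled, 141.6 in replicate 1 and 78.8 in replicate 2. In both cases replicate 1 was well above replicate 2. The called peak between the starts of the 2 genes, which the promoter window excludes, had a pooled signal of 711.

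V:9088953 (V:9088763-9089142) lay between the facing ends of a pair of small heat shock protein genes, both named hsp-16.48 in the annotation, 336 bp and 327 bp away. It had 199.6 pooled, 123.5 in replicate 1 and 68.6 in replicate 2. III:4195622 (III:4195432-4195811), the strongest on chromosome III, lay 264 bp past the end of xbp-1, a transcription factor gene of the unfolded protein response, with 189.6 pooled, 95.6 in replicate 1 and 91.1 in replicate 2. Heat shock genes were not a list of this work and were picked out after their values were seen.

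Other strong peaks lay past genes of varied function. IV:2709796 (228.1 pooled, 153.9 in replicate 1, 77.3 in replicate 2) lay 325 bp past Y94H6A.10. I:16940 (217.4 pooled, 141.7 in replicate 1, 70.4 in replicate 2) lay 103 bp past nlp-40, a neuropeptide gene, and was the strongest on chromosome I. IV:8375639 (214 pooled, 130.7 in replicate 1, 79.4 in replicate 2) lay between the converging genes D2096.7, 83 bp away, and aagr-1, an alpha-glucosidase-related gene, 268 bp away. At each of these 3 peaks the replicate 1 signal was the higher.

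Among the gene families counted by name, 4 of the 415 had a ribosomal protein gene as the nearest coding gene (0.964%), against 0.183% of peaks not called and 0.240% of bases. Those were IV:4389125, 18 bp past rpl-7A (168.7), I:13953404, 201 bp past rps-6 (166.5), III:7178706, 285 bp past rps-14 (117.7), and IV:384670, 1217 bp upstream of rps-24 (83.0). Ciliary genes were nearest at 2 peaks (0.482%, against 0.216% of peaks not called), III:3801630, 271 bp past xbx-5, with 134.8 pooled, 61.8 in replicate 1 and 72.9 in replicate 2, and II:6217626, 996 bp past mks-2, a transition zone gene, with 93.3. Chemoreceptor genes were nearest at 17 peaks (4.10%), against 6.64% of peaks not called and 6.92% of bases. Collagen genes were nearest at 2 peaks (0.482%), against 0.362% of peaks not called and 0.587% of bases. C-type lectin genes were nearest at 2 (0.482%, against 0.712% and 0.969%). F-box genes were nearest at 7 (1.69%, against 0.955% and 1.66%), and nuclear hormone receptor genes at 7 (1.69%, against 2.12% and 1.94%). MATH or BATH genes were nearest at 1 (0.241%, against 0.173% and 0.417%), and histone genes at 0 (against 0.0486% and 0.0808%).

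Pseudogenes were about as frequent near these peaks as near peaks not called. Within 500 bp of a pseudogene lay 75 of the 415 (18.1%, Wilson 95% interval 14.7 to 22.1%), against 15.3% of peaks not called and 17.2% of bases, and 55 summits were inside one. The 75 peaks lay by 66 pseudogenes, 10 of them named as chemoreceptor genes. After the pair at K08F11.6 the strongest was II:11762016. Further examples were I:5372546 (168.9) inside wago-2, an Argonaute gene annotated as a pseudogene, and V:15454467 (150.3) inside srh-238, a chemoreceptor pseudogene. Median signal was 93.5 in the pseudogene group and 93.3 in the 260 peaks with neither a pseudogene nor a noncoding gene within 500 bp. No summit lay within 500 bp of a tRNA pseudogene, against 0.259% of peaks not called, and 0 of 415 allows a share of up to 0.723%.

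Noncoding genes of all kinds other than the excluded small RNA genes lay within 500 bp of 87 peaks (21.0%, Wilson 95% interval 17.3 to 25.1%), against 24.3% of peaks not called and 18.7% of bases. A piRNA gene was within 500 bp of 22 peaks (5.30%, interval 3.53 to 7.90%), against 13.7% of peaks not called and 10.5% of bases. Of the 2402 place-passing ranked peaks near a piRNA gene on chromosome IV, 16 were called (0.666%). The called share was 1.71% for all 5100 place-passing ranked peaks of chromosome IV and 2.19% over all autosomes. The strongest near a piRNA gene was IV:2388153, 92 bp from 21ur-15588 and 32 bp past sec-61.B, a translocon subunit gene, with 166.7 pooled, 80.9 in replicate 1 and 84.9 in replicate 2. It was followed by III:4015867 (131), 43 bp past tbb-2, a beta-tubulin gene, and IV:10421388 (106). A noncoding gene that was neither a piRNA nor a miRNA gene lay within 500 bp of 67 peaks (16.1%, interval 12.9 to 19.99%), against 11.4% of peaks not called and 8.60% of bases.

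**Figure D4:**
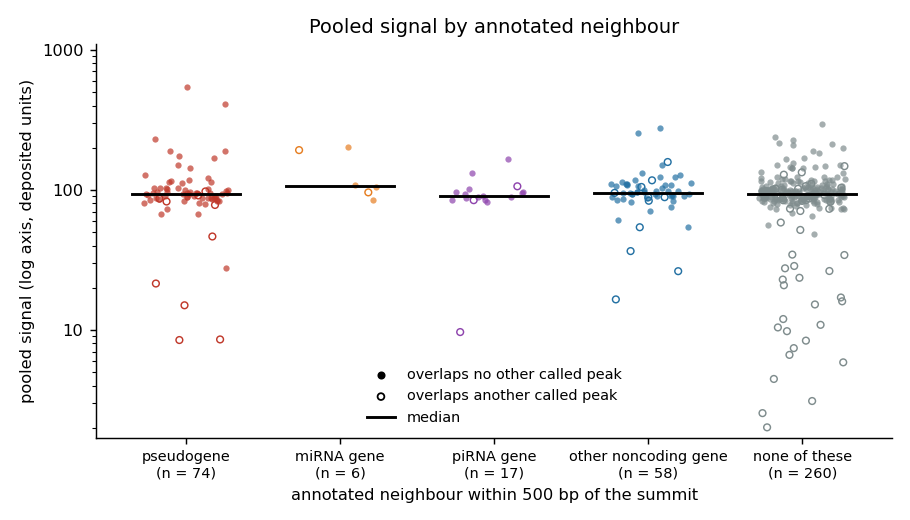
Pooled signal (log axis, deposited units) of each of the 415 peaks, grouped by the annotated gene within 500 bp of the summit in a fixed order of precedence. Filled points overlap no other called peak, open points overlap one, and black lines are medians. The medians run from 90.7 by piRNA genes to 105.9 by miRNA genes, and the low points are nearly all open circles.

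A miRNA gene lay within 500 bp of 6 peaks (1.45%, interval 0.664 to 3.12%), against 0.335% of peaks not called and 0.362% of bases. Of the 68 place-passing ranked peaks that close to a miRNA gene, 8.82% were called (interval 4.11 to 17.9%), against 2.17% of the 18876 farther away. Among the 338 peaks that overlapped no other called peak, 4 lay that close to a miRNA gene (1.18%, interval 0.461 to 3.00%). The 2 strongest were at genes of the mir-51 family, an abundant miRNA family of embryos and larvae, and their sequences are given with the annotated miRNA gene in capitals. The first runs over IV:14033949-14034148 on the plus strand and the second over IV:11025998-11026277 on the minus strand.
cel-mir-52: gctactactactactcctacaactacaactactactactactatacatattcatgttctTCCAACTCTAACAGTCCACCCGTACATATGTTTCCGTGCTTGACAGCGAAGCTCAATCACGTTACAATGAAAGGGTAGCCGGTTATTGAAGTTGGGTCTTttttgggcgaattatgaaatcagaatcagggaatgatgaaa
cel-mir-51: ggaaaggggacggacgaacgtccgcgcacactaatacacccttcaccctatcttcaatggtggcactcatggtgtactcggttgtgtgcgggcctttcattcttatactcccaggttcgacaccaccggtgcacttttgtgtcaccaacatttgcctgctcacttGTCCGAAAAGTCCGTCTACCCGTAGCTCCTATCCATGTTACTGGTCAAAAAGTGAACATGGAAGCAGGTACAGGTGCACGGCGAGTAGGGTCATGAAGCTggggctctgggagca
The IV:11026247 peak (IV:11026057-11026436) lay 135 bp from cel-mir-51, upstream of it, 28 bp from the noncoding gene F36H1.17 and 377 bp past the end of alh-3, with 200.7 pooled, 115.7 in replicate 1 and 83.6 in replicate 2. The IV:14034009 peak (IV:14033819-14034198) had its summit inside cel-mir-52, with 192.2 pooled, 89.7 in replicate 1 and 117.6 in replicate 2. The replicates differed in direction at these 2 peaks. The 6 summits lay by 5 miRNA genes.

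A further 3 called peaks lay around cel-mir-52, at IV:14034209 (95.9), IV:14033242 (158) and IV:14033447 (54.0), each overlapping another called peak. IV:7841318 lay 313 bp from cel-mir-83 with 107.7 pooled, 58.1 in replicate 1 and 40.2 in replicate 2, V:17140595 lay 73 bp from mir-257 with 104, and II:3306631 lay 295 bp from mir-260 with 84.9. V:14365032, outside the 500 bp, lay 523 bp from cel-mir-48, a miRNA of the let-7 family that times larval development, with 145.7 pooled, 80 in replicate 1 and 62.4 in replicate 2. Within 1000 bp of a miRNA gene lay 11 of the 415 peaks, 4 of them at cel-mir-52.

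Chromosome arms were taken as the outermost 25% of the length at either end. They held 136 of the 415 peaks (32.8%, Wilson 95% interval 28.4 to 37.4%), 33.6% of the peaks not called and 53.5% of the bases that pass the place rule. The lower share on the arms than among bases was thus found for ranked peaks in general. By chromosome the arms held 22 of 65 on I, 28 of 85 on II, 19 of 82 on III, 35 of 87 on IV and 32 of 96 on V. The share was highest on IV, at 40.2% (45.9% of peaks not called), and lowest on III, at 23.2% (26.3%). On I it was 33.8%, against 22.4% of peaks not called. Median signal was 93.5 on the arms and 94.1 in the centres.

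**Figure D5:**
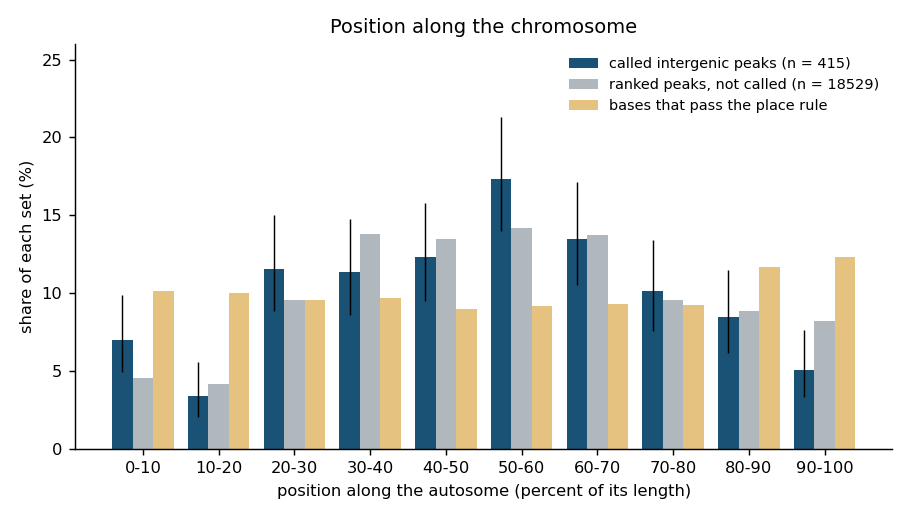
Share of each set (vertical axis, %) along the autosomes (horizontal axis, in bins of 10% of the length, all 5 together) for called distal intergenic peaks with Wilson 95% intervals, ranked peaks not called and bases that pass the place rule. The called peaks range from 3.37% in the second bin to 17.3% in the sixth, while the bases stay between 8.97% and 12.3%.

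Chromosome III held 82 peaks (19.8%), against 13.8% of peaks not called and 14.4% of bases, and chromosome I held 65 (15.7%, against 12.2% and 14.5%). Chromosomes IV and V held 21.0% and 23.1%, against 27.1% and 28.1% of peaks not called. Median signals on the 5 autosomes were between 93.6 and 95.1.

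The sequence around the summits was richer in G and C than at peaks not called, with a median GC content of 37.7% over 300 bp, against 33.0%. Near gene ends the medians were 36.3% and 32.7%. Soft-masked (repeat or low-complexity) bases made up a median of 21.7% of the window, against 31.7%. Precipitation and amplification can depend on base composition, and its part in any share given here was not tested.

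The X-box, searched by its consensus within 100 bp of the summit on both strands, was found at 5 of the 415 peaks (1.20%, interval 0.516 to 2.79%). It was found at 1.98% of peaks not called and at 0 of the 106 at an IDR of 0.01 or less. The interval for those 106 reaches 3.50%, above the share of peaks not called. The strongest of the 5 was II:8338122, with 97.2 pooled, 45.2 in replicate 1 and 48.6 in replicate 2. Shorter motifs were searched in the same window on both strands. GTTNCC, the core of an X-box arm, occurred at 25.5%, against 23.7%. GAGAGAG occurred at 7.95%, against 3.50%, and the strongest peak with it was I:16940. The E-box CACGTG occurred at 5.78%, against 2.50%, with IV:9196449 the strongest. The piRNA promoter motif CTGTTTCA occurred at 1.69%, against 4.19%, with III:5839351 (119.4) the strongest.

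The B box of tRNA genes, GTTCGANNC, occurred at 1.69%, against 1.40%, and IV:11026247 by cel-mir-51 was the strongest with it. The heat shock motif GAANNTTC occurred at 13.7%, against 13.8%, with IV:9196449 the strongest, and the telomere repeat TTAGGC at 3.86%, against 4.79%, with I:7158345 (122.9) the strongest. A match to letters is a description and not a binding site. Similarity to an annotated tRNA, snRNA, snoRNA or rRNA gene was found at 2 peaks (0.482%, against 0.351% of peaks not called), both to the snoRNA gene T15H9.8. I:12923838, 290 bp past the end of pfn-1, a profilin gene, matched it at 70.9% over 79 bp and had 116.2 pooled, 64.1 in replicate 1 and 51.3 in replicate 2. V:5297926 matched at 90.3% over 31 bp and had 89.9 pooled, 51.7 in replicate 1 and 36.8 in replicate 2.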

How the data were processed

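Chromatin immunoprecipitation with an anti-GFP antibody was followed by sequencing in 2 replicates of 1 group. The deposited files used here are 4 ranked peak lists on ce11, 2 from both replicates together and 1 for each replicate. They give a signal per peak whose scaling by the authors is not stated, and a deposited −log10 value of the IDR, per the labels and the files. Which aligner, caller and read filters were used is not given in the sources used here. A control named in the labels was not analysed here, and depth is unknown. In the pooled lists, 16 further columns without names were not used. Chromosome lengths of the RefSeq WBcel235 sequence hold every peak. Genes came from Ensembl release 115, with locus names from RefSeq. For each replicate the strongest ranked peak over a summit was taken. Windows of 300 bp around summits were compared with small RNA genes (blastn 2.17.0, E value of 1e-05 or less) and with the genome (1e-10 or less, at least 100 bp and 70% identity). A distance ran from the summit to the nearest edge of a gene, and where several kinds of gene lay within 500 bp a miRNA gene came first, then a pseudogene, a piRNA gene and other noncoding genes.

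There was 1 group and the IDR chose the peaks, so no test was run. Shares are set beside those of place-passing ranked peaks that failed the threshold and of the bases that pass the place rule. Wilson 95% intervals, and upper limits from 3 counts, cover counting error only, and neighbouring peaks are not independent. The members, lists and alternatives were chosen with earlier results of these data known. Peaks were named by rule: the 12 strongest, the strongest per autosome, the strongest 3 by a pseudogene, a piRNA gene, another noncoding gene or none, the strongest with each motif, those similar to small RNA genes, the strongest 3 lacking a replicate's peak, and 3 on either side of the threshold. Others were named after their values were seen. The place rule and distances were checked on 2000 simulated positions. The tools were Python 3.11.15 with scipy 1.17.1, pandas 2.3.3 and numpy 2.4.6, and figures were drawn in matplotlib 3.10.9. No sample was left out of the results given first.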

Additional observations from a re-analysis of the deposited data

How the results depend on the processing

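An IDR of 0.01 kept 106 peaks with a median signal of 119.3, of which 94.3% had a ranked peak of both replicates over the summit and 14.2% lay within 500 bp of a pseudogene. When 1 replicate was left out and the other's own list was used with the same thresholds, 97 to 102 peaks remained, with median signals of 61.1 to 66.5, both replicates' peaks at 89.7 to 94.1% of summits, 25.5 to 37.1% on the arms, 15.5 to 17.6% by a pseudogene and 21.6 to 22.7% by a noncoding gene. The lists of single replicates rest on another IDR, from 1 replicate, so these numbers differ by construction, and their signals are on the scale of 1 replicate. Both replicates' peaks were found at 96.6% of 381 merged loci, and at 97.0% of the peaks overlapping no other called peak, an alternative added after the data were seen. Arms drawn wider, so that arm, centre and arm were of equal length, held 57.8% of the peaks, against 69.6% of bases. A noncoding gene lay within 200 bp of 14.9% and within 1000 bp of 29.2%. Over 1000 bp from any coding gene, another added alternative, lay 263 peaks. All other combinations, among them the other pooled list (397 peaks) and promoter windows of 500 bp (513) and 2000 bp (302), stayed within the interval or spread of the value given first, or within 1.5 times its count.

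The share within 500 bp of a coding gene's end was 30.7% in the other pooled list, 37.1% without replicate 1, 40.2% without replicate 2, 28.3% after merging and 29.9% without overlapping peaks. No paired analysis was possible because there was 1 group. With no read counts, no interval for the signal of a peak could be made, and no background sample was used.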
